A study of Mus musculus with 2 samples.

Results

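Transcription factors that hold T cells in the naive state, and those that oppose them, were compared between gamma/delta and CD8+ alpha/beta T cells. The members are Bach2, Lef1, Tcf7, Satb1, Foxp1, Bcl6, Prdm1, Tbx21 and Eomes, chosen by gene symbol, with every probe set that the platform annotation gives to 1 of these symbols alone. They comprise 24 of 34945 probe sets with 1 symbol and 8 of 18193 genes. Tcf7, which encodes TCF-1, matched no probe set with 1 symbol and was not analysed here. The gamma/delta group is a preparation of naive gamma/delta T cells that the label describes as CD44-. The alpha/beta group is a preparation of naive CD8+ alpha/beta T cells. Both were taken from lymph nodes of C57BL/6 mice and enriched by removing other cells, with no engineered allele or treatment given. The number and age of the mice behind each preparation are not stated in the labels. Each preparation was read on 1 Affymetrix MOE430 2.0 array, so that no difference has a replicate check, a standard error or a p-value.

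A naive T cell circulates in a quiescent state until antigen activates it. BACH2 is a repressor that occupies sites also bound by AP-1 factors and so restrains effector genes. TCF-1 and LEF1 are HMG-box factors that can act with beta-catenin or with Groucho corepressors, SATB1 organises chromatin in thymocytes and T cells, and FOXP1 is a forkhead factor needed for T cell quiescence. BCL6 and BLIMP-1, the product of Prdm1, are repressors that oppose each other in lymphocyte differentiation. T-bet, the product of Tbx21, and EOMES are T-box factors of the cytotoxic and interferon gamma programmes.

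The deposited values were linear signals that the authors' software had scaled to one level, with a trimmed mean of 500.003 on each array. A floor was set at the higher of the arrays' medians, a signal of 243.3, and signals under it were raised to it. Where 1 array was under the floor the ratio is only a bound, and where both were there is none. A log2 ratio is gamma/delta over alpha/beta, so that a negative value means lower in gamma/delta cells, and a probe set or gene was called at 2-fold. For a gene with several probe sets, the one brightest on average (mean log2 signal) was used. The 3′ to 5′ signal ratio of actin, a measure of RNA integrity, was 6.99 for gamma/delta cells, against 3.12 for CD8+ alpha/beta cells. That of Gapdh was 3.06 for gamma/delta cells, against 3.24 for CD8+ alpha/beta cells. The part of RNA integrity in the ratios below was not tested.

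Bach2, Satb1 and Lef1 were each lower in gamma/delta cells by more than 2-fold, Foxp1 was lower on some of its probe sets, and Bcl6, Prdm1 and Eomes differed by less than 2-fold. Of the 24 probe sets 20 had a ratio. Of these 20, 17 were lower in gamma/delta cells and 3 higher, where 49.9% of all probe sets with a ratio were lower. Some of the 17 lay close to 0, among them both probe sets of Bcl6 (-0.08 and a bound of -0.03). At least 2-fold lower were 8 of 20 (40.0%), where 3.99% of all 26402 probe sets with a ratio passed the same call. At least 2-fold higher were 0 of 20, where 4.68% of all did. By gene, 3 of the 7 measured members (42.9%) were lower by 2-fold or more and 0 higher, against 3.93% and 5.82% of 11914 genes. The median log2 ratio was -0.72 over the 7 member genes and 0.03 over all genes. The members were picked with results of these arrays known, so these shares describe them and support no direction. In RNA from whole preparations, fewer cells that express a gene and less RNA per cell cannot be told apart.

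**Figure D1:**
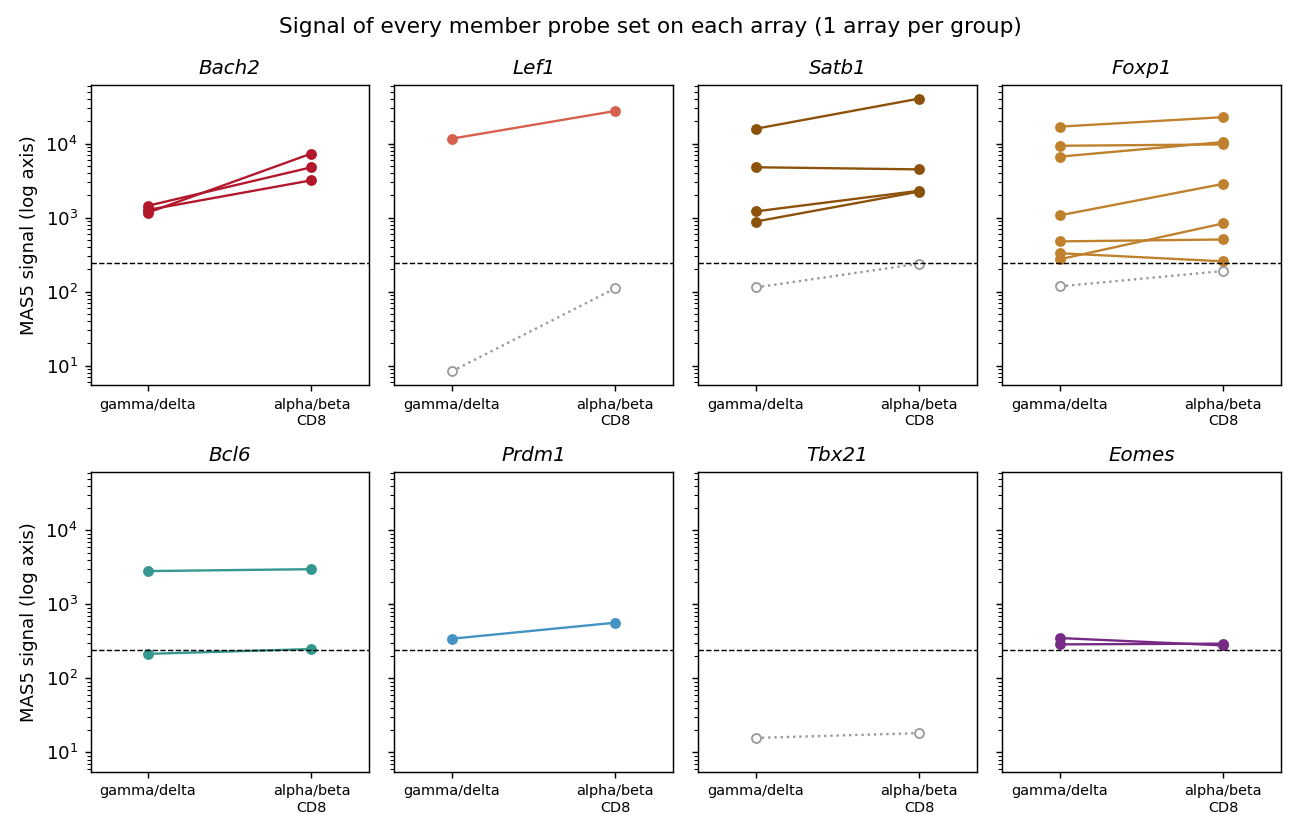
Signal of every member probe set (log axis) on the gamma/delta array, left, and the alpha/beta CD8 array, right, with 1 line per probe set and the floor of 243.3 dashed; open points joined by dotted lines are below the floor on both arrays. The 3 Bach2 lines all run well above the floor and end higher in CD8+ alpha/beta cells, while Tbx21 lies far below the floor on both arrays.

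Bach2 showed the largest difference of the members, and all 3 of its probe sets agreed in direction. Probe set 1437667_a_at read 1167 in gamma/delta cells, against 7351 in CD8+ alpha/beta cells, which is 6.30-fold lower (log2 ratio -2.66). Probe set 1445460_at read 1446 in gamma/delta cells, against 4793 in CD8+ alpha/beta cells, with a log2 ratio of -1.73. Probe set 1436515_at read 1272 in gamma/delta cells, against 3196 in CD8+ alpha/beta cells, with a log2 ratio of -1.33. All 3 therefore passed the 2-fold call, but they differed in size. The SD of the 3 log2 ratios was 0.68, where the pooled SD between probe sets of a gene was 0.50 over 3317 genes. These probe sets were designed from different source records. Whether they overlap on the transcript was not analysed here. By its gene value Bach2 was the 5th lowest of all 11914 genes with a ratio. That rank is of 1437667_a_at, the lowest of its 3 probe sets. Of all probe sets with a ratio, 0.05% were lower than 1437667_a_at, 0.40% than 1445460_at and 1.34% than 1436515_at. With probe sets averaged the Bach2 log2 ratio was -1.90, and without 1437667_a_at and others of that suffix it was -1.73.

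Lef1 was 2.37-fold lower in gamma/delta cells on the probe set used for it. Probe set 1454734_at read 11679 in gamma/delta cells, against 27658 in CD8+ alpha/beta cells, with a log2 ratio of -1.24. The other, 1421299_a_at, read 8.35 in gamma/delta cells and 111.1 in CD8+ alpha/beta cells, below the floor on both arrays, and gave no ratio. Lef1 thus rests on 1 probe set, which read far above the floor in both preparations. With the dim probe set averaged in, its log2 ratio was -2.49.

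Satb1 was lower in gamma/delta cells on 3 of the 4 probe sets with a ratio. Probe set 1416008_at, used for the gene, read 15893 in gamma/delta cells, against 40660 in CD8+ alpha/beta cells, a 2.56-fold difference (log2 ratio -1.36). Probe set 1436182_at read 885.1 in gamma/delta cells, against 2253 in CD8+ alpha/beta cells, with nearly the same log2 ratio of -1.35. Probe set 1416007_at read 1214 in gamma/delta cells, against 2310 in CD8+ alpha/beta cells. Its log2 ratio of -0.93 lies just short of the 2-fold call, and it shares its source record with 1416008_at. Probe set 1439449_at went against the others, with 4798 in gamma/delta cells and 4492 in CD8+ alpha/beta cells (log2 ratio 0.10). The fifth, 1439315_at, read 113.8 in gamma/delta cells and 238.7 in CD8+ alpha/beta cells, under the floor on both. With the probe sets averaged, the Satb1 ratio was -0.92 and no longer reached 2-fold.

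Foxp1 had 8 probe sets, and they did not give one answer. The probe set used for the gene, 1435222_at, read 16974 in gamma/delta cells, against 22805 in CD8+ alpha/beta cells, with a log2 ratio of -0.43. Probe sets 1435221_at (9361 in gamma/delta cells, 9760 in CD8+ alpha/beta cells) and 1455242_at (6672 in gamma/delta cells, 10526 in CD8+ alpha/beta cells) come from the same source record and had log2 ratios of -0.06 (0.10 after loess and 0.06 after quantile normalization) and -0.66. None of these 3 reached 2-fold. Of the 3 designed from a different record, 1421141_a_at read 273.5 in gamma/delta cells, against 835.4 in CD8+ alpha/beta cells (log2 ratio -1.61, or at most -0.90 and no longer called when the floor was raised to the 70th percentile). Probe set 1421142_s_at read 1074 in gamma/delta cells, against 2858 in CD8+ alpha/beta cells (log2 ratio -1.41). The remaining one of that record, 1421140_a_at, read 477.5 in gamma/delta cells and 506.6 in CD8+ alpha/beta cells, with a log2 ratio of -0.09. Probe set 1438802_at was slightly higher, at 330.5 in gamma/delta cells against 256.7 in CD8+ alpha/beta cells, close to the floor. Probe set 1443258_at stayed under the floor with 117.7 in gamma/delta cells and 189.8 in CD8+ alpha/beta cells. Over the 7 with a ratio the log2 ratios ran from -1.61 to 0.36 (SD 0.73), and 2 were called. The suffixes _a_at and _s_at mark probe sets that match several transcripts of a gene or of related genes. Which transcripts the Foxp1 probe sets read was not analysed here.

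**Figure D2:**
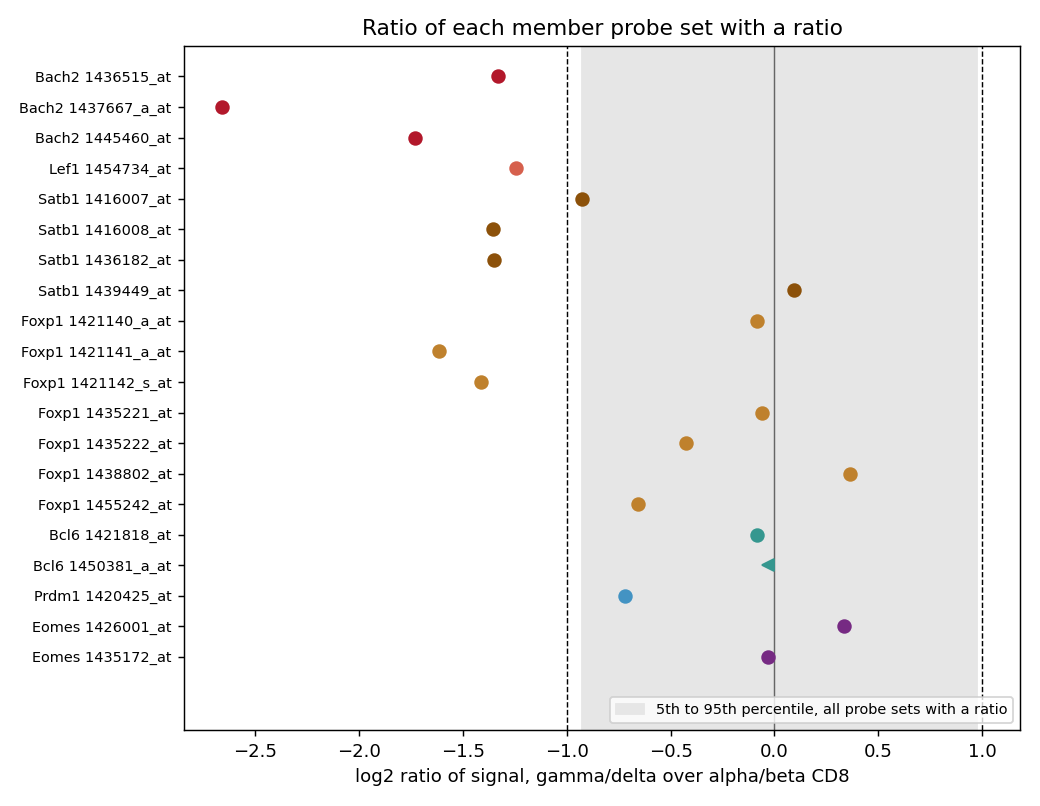
Log2 ratio of gamma/delta over alpha/beta CD8 signal for the 20 member probe sets with a ratio, 1 row each; dashed lines mark 2-fold, the grey band spans the 5th to 95th percentile of all probe sets with a ratio (-0.92 to 0.97), and the triangle is a bound. All 3 Bach2 probe sets lie left of the band, while those of Satb1 and Foxp1 lie both outside and inside it.

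None of Bcl6, Prdm1 and Eomes reached 2-fold. Bcl6 read 2820 in gamma/delta cells and 2990 in CD8+ alpha/beta cells on 1421818_at, a log2 ratio of -0.08. Its other probe set, 1450381_a_at, read 214.4 in gamma/delta cells, under the floor, and 249.0 in CD8+ alpha/beta cells, barely above it. The Bcl6 value thus rests on 1421818_at, since the other probe set gives only a bound.

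Prdm1, read by 1 probe set, gave 343.5 in gamma/delta cells and 566.0 in CD8+ alpha/beta cells, 1.65-fold lower in gamma/delta cells (log2 ratio -0.72). Both signals lay within 3-fold of the floor. The Prdm1 gene is a known target of repression by BACH2. Of the plasma cell markers, genes active in cells with high BLIMP-1, Sdc1 was higher in gamma/delta cells by at least 3.37-fold (820.1 in gamma/delta cells, against 160.5 in CD8+ alpha/beta cells) and Xbp1 was 2.27-fold higher (644.9 in gamma/delta cells, against 284.2 in CD8+ alpha/beta cells), with 4 probe sets from 0.47 to 1.18. Mzb1 read below the floor on both arrays, Jchain read 467.9 in gamma/delta cells and 320.3 in CD8+ alpha/beta cells, and Tnfrsf17 read 219.1 in gamma/delta cells and 264.4 in CD8+ alpha/beta cells. The 4 measured Sdc1 probe sets ran from -0.14 to 1.75. The part of plasma cells in the Prdm1 signal was not tested.

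Of the T-box factors, Tbx21 was below the floor and Eomes just above it. Tbx21 read 15.7 in gamma/delta cells and 18.2 in CD8+ alpha/beta cells on its only probe set, below the floor on both arrays, so that no ratio was given. Eomes read 351.0 in gamma/delta cells and 278.9 in CD8+ alpha/beta cells on 1426001_at, with a log2 ratio of 0.33. On 1435172_at it read 288.1 in gamma/delta cells and 294.8 in CD8+ alpha/beta cells, with a log2 ratio of -0.03. The Eomes probe sets therefore gave no common direction, and all 4 readings were less than 1.5-fold above the floor.

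**Figure D3:**
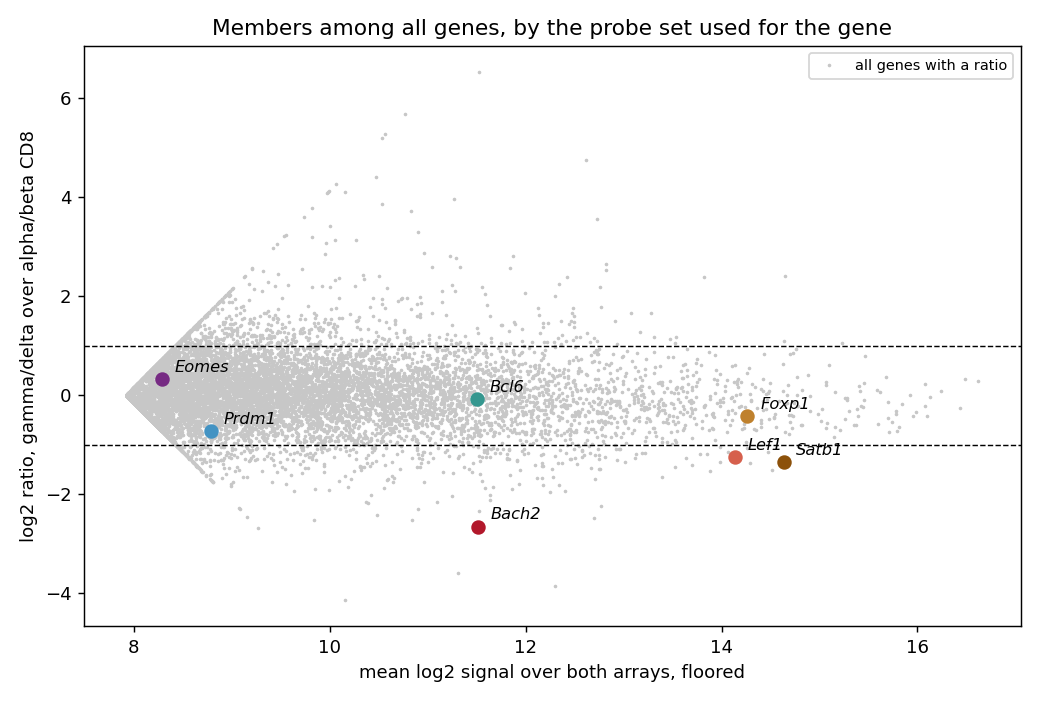
Log2 ratio of gamma/delta over alpha/beta CD8 signal against the mean log2 signal over both arrays, floored, for 11914 genes (grey) and the 7 members with a ratio (coloured and named); dashed lines mark 2-fold. Bach2 lies at the lower edge of the cloud, and Satb1 and Lef1 lie below the lower dashed line at high signal.

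Ratios over the whole array leaned slightly downwards at high signal. Of the 306 genes within 1 log2 unit of the mean signal of Lef1 the median log2 ratio was -0.16, and 5.56% were lower in gamma/delta cells by 2-fold or more. For the 202 genes around Satb1 these values were -0.15 and 6.44%. Loess normalization, which removes this trend, left log2 ratios of -1.03 for Lef1, -1.11 for Satb1, -0.21 for Foxp1 and -2.59 for Bach2. Lef1 and Satb1 thus stayed past 2-fold by a small margin.

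By the rule for likeness, the genes outside the members with the closest log2 ratio to Bach2 were Rras2 (-2.47), a small GTPase, Ms4a6c (-2.34) and Btbd11 (-2.31). The closest to Lef1 were Zbtb44 (-1.24), Kif1b (-1.23), a kinesin motor, and Tmod3 (-1.26), a tropomodulin that caps actin filaments. These are values of the probe set used for each gene. Over all their probe sets the log2 ratios reached -1.76 for Rras2 and -1.12 for Ms4a6c, and ran from -2.58 to -1.87 for Btbd11. They reached -0.18 for Zbtb44 and -0.02 for Tmod3, and ran from -2.02 to -0.33 for Kif1b. Likeness was the difference in log2 ratio across the 2 arrays, among 1484 genes with several probe sets of one sign. With 2 arrays it says only that the ratios are near one another.

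The RefSeq promoter table of GRCm38.p6 held 20 windows for the 9 members, counted by start site. They were searched on both strands, over the 250 bases before the start, for CTTTGA and CTTTGTT (TCF/LEF), TGAGTCA (BACH and AP-1), TGTTTAC (forkhead), TTCCTNGAA (BCL6), AGGTGTGA (T-box) and GTGAAAG (BLIMP-1). The windows before the most upstream listed start of the 3 genes called lower in gamma/delta cells are shown, 5′ to 3′ in the direction of the gene, since these 3 were lower together. Capitals mark a match to a searched motif.
Bach2 (chr4:32417185-32417434, plus strand): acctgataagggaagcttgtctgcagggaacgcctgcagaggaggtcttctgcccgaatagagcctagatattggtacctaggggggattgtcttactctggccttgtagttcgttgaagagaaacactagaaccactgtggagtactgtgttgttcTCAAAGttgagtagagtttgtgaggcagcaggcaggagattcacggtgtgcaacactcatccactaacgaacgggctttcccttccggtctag
Lef1 (chr3:131110047-131110296, plus strand): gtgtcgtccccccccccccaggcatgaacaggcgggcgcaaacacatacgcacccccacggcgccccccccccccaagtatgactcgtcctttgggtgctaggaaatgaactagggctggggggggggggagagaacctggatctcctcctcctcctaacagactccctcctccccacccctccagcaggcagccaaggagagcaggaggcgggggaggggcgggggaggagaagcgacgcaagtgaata
Satb1 (chr17:51833291-51833540, minus strand): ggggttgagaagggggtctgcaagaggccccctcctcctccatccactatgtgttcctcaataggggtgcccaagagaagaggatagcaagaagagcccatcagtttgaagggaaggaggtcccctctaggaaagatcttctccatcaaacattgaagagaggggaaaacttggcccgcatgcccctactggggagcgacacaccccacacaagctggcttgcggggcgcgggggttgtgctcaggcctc
The Bach2 window held 1 match, CTTTGA on the opposite strand, which begins 93 bases before the start. The Lef1 and Satb1 windows shown held none. CTTTGA was found in 4 of the 20 windows, beside Bach2 in the most downstream Lef1 window and in 1 window each of Foxp1 and Bcl6, and 13.8% of all 32851 promoter windows held it. CTTTGTT was found in 4, of Satb1 and Foxp1, against 5.03% of all, and the 2 Satb1 windows with it overlap and show the same match. TGTTTAC was found in the Prdm1 window (3.17% of all) and TTCCTNGAA in a Bcl6 window (1.31% of all). TGAGTCA, AGGTGTGA and GTGAAAG were found in 0 of the 20 windows, against 4.46%, 1.12% and 3.57% of all. Any of the motifs was present in 8 of the 20 windows and in 28.1% of all. The GC content was 50.4% in the Bach2 window, 66.4% in that of Lef1 and 58.0% in that of Satb1, where the median of all windows was 52.4%. A match describes letters and not binding.

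Genes that work with the members were taken from 5 lists, and the ranges given over a gene's probe sets include bounds. Of the BACH, small MAF and AP-1 partners, 7 of 10 had a ratio. By 2-fold or more 3 were higher in gamma/delta cells and 1 lower, against 5.82% and 3.93% of all genes. The median log2 ratio was 0.68, against 0.03 over all genes. Jun, an AP-1 subunit, read 5185 in gamma/delta cells, against 860.7 in CD8+ alpha/beta cells (6.02-fold higher). Junb read 1260 in gamma/delta cells, against 266.1 in CD8+ alpha/beta cells (4.74-fold higher), and Jund read 55407 in gamma/delta cells, against 26757 in CD8+ alpha/beta cells (2.07-fold higher). The other AP-1 family genes of the list, Batf and Batf3, read below the floor on both arrays. Nfe2l2, which encodes the stress factor NRF2, was 2.03-fold lower (502.8 in gamma/delta cells, 1022 in CD8+ alpha/beta cells), but its other probe set gave a log2 ratio of 0.13. Bach1, the closest relative of Bach2, read 5167 in gamma/delta cells and 6556 in CD8+ alpha/beta cells (log2 ratio -0.34). Of the small MAF genes, Mafk read 871.7 in gamma/delta cells and 543.1 in CD8+ alpha/beta cells (log2 ratio 0.68). Maff read 396.5 in gamma/delta cells and 257.9 in CD8+ alpha/beta cells (log2 ratio 0.62), and Mafg read below the floor on both arrays.

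In the TCF/LEF and beta-catenin pathway 14 of 17 genes with a probe set had a ratio. By 2-fold or more 2 were higher in gamma/delta cells and 0 lower, against 5.82% and 3.93% of all genes. The median was -0.22, or 0.25 with 1 gene called lower when probe sets were averaged. Tle3, a Groucho corepressor, read 8278 in gamma/delta cells, against 2426 in CD8+ alpha/beta cells (3.41-fold higher), with 3 probe sets from 0.28 to 1.77. Its relative Tle4 went the other way on the probe set used, with 7601 in gamma/delta cells and 12670 in CD8+ alpha/beta cells (log2 ratio -0.74). The other Tle4 probe set was near 0, at -0.05. Bcl9, a beta-catenin cofactor, was 2.45-fold higher (1294 in gamma/delta cells, 527.9 in CD8+ alpha/beta cells), and its other probe set gave a bound, a log2 ratio of at least 0.46. Of the relatives of Lef1, Tcf7l2 read 539.6 in gamma/delta cells and 1017 in CD8+ alpha/beta cells (log2 ratio -0.91, and -0.24 on its other probe set). Tcf7l1 read below the floor on both arrays. Ctnnb1, which encodes beta-catenin, had a log2 ratio of -0.28 on the probe set used, and its 3 probe sets ran from -1.65 to -0.27. Axin2, a known target of the pathway, read 841.4 in gamma/delta cells and 1352 in CD8+ alpha/beta cells (log2 ratio -0.68).

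Among the relatives and corepressors of Satb1, Foxp1 and Bcl6, 6 of 13 had a ratio. By 2-fold or more 0 were higher in gamma/delta cells and 0 lower, against 5.82% and 3.93% of all genes. The median was 0.48, or 0.14 with probe sets averaged, against 0.03 over all genes. Foxp2 read 3121 in gamma/delta cells and 2174 in CD8+ alpha/beta cells, and Bcor, a BCL6 corepressor, read 3481 in gamma/delta cells and 2288 in CD8+ alpha/beta cells. Their probe sets gave no common direction, from -0.65 to 0.52 for Foxp2 and from -0.48 to 0.61 for Bcor. Foxp3 read below the floor on both arrays.

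Of the naive-state and central memory genes 13 of 15 had a ratio. By 2-fold or more 3 were lower in gamma/delta cells and 0 higher, against 3.93% and 5.82% of all genes. The median was -0.30, against 0.03 over all genes. It was -0.09 after loess, -0.13 after quantile normalization and -0.07 with no floor. Without probe sets of the suffixes _x_at, _s_at and _a_at it was -0.71. Il7r, the interleukin 7 receptor chain whose transcription FOXP1 is known to restrain, read 13879 in gamma/delta cells, against 39479 in CD8+ alpha/beta cells (2.84-fold lower), and its 2 probe sets agreed. Cd28, the costimulatory receptor, read 513.0 in gamma/delta cells, against 1349 in CD8+ alpha/beta cells (2.63-fold lower), while its other probe set gave a log2 ratio of -0.71, short of 2-fold. Zeb1, a zinc finger repressor, read 5169 in gamma/delta cells, against 13260 in CD8+ alpha/beta cells (2.57-fold lower), but its 3 probe sets ran from -1.36 to 1.18. Of the 13 genes 7 were below 0 and 6 above. Above 0 were Cd27 (log2 ratio 0.81), Foxo1 (0.66, with 4 probe sets from 0.38 to 0.85) and Id3. The Id3 ratio was a bound of at least 0.80, since its alpha/beta signal was under the floor. Myb had 0.36, with 3 probe sets from -0.20 to 0.36. Klf2 and S1pr1, which keep naive cells in circulation, had log2 ratios of 0.16 and 0.29. The lower signals of Bach2, Satb1 and Lef1 thus stood beside lower signals of some naive-state genes and not of others.

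Of 21 effector genes 13 had a ratio. By 2-fold or more 2 were higher in gamma/delta cells and 0 lower, against 5.82% and 3.93% of all genes. The median was 0.37, but -0.14 with probe sets averaged and -0.06 with the 70th percentile as floor. Nkg7, a granule membrane protein, read 6304 in gamma/delta cells, against 1045 in CD8+ alpha/beta cells (6.04-fold higher). Gzma, granzyme A, read 1442 in gamma/delta cells, against 73.4 in CD8+ alpha/beta cells, at least 5.93-fold higher. Ifng, a target of T-bet and EOMES, read 353.4 in gamma/delta cells and 5.28 in CD8+ alpha/beta cells, at least 1.45-fold higher, while Gzmb, Cxcr3 and Il12rb2 read below the floor on both arrays. The probe set used for Cx3cr1 was also under it in both preparations, and its other probe set gave a bound of -0.33, lower in gamma/delta cells. Irf4 read 1136 in gamma/delta cells and 2170 in CD8+ alpha/beta cells (log2 ratio -0.93).

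**Figure D4:**
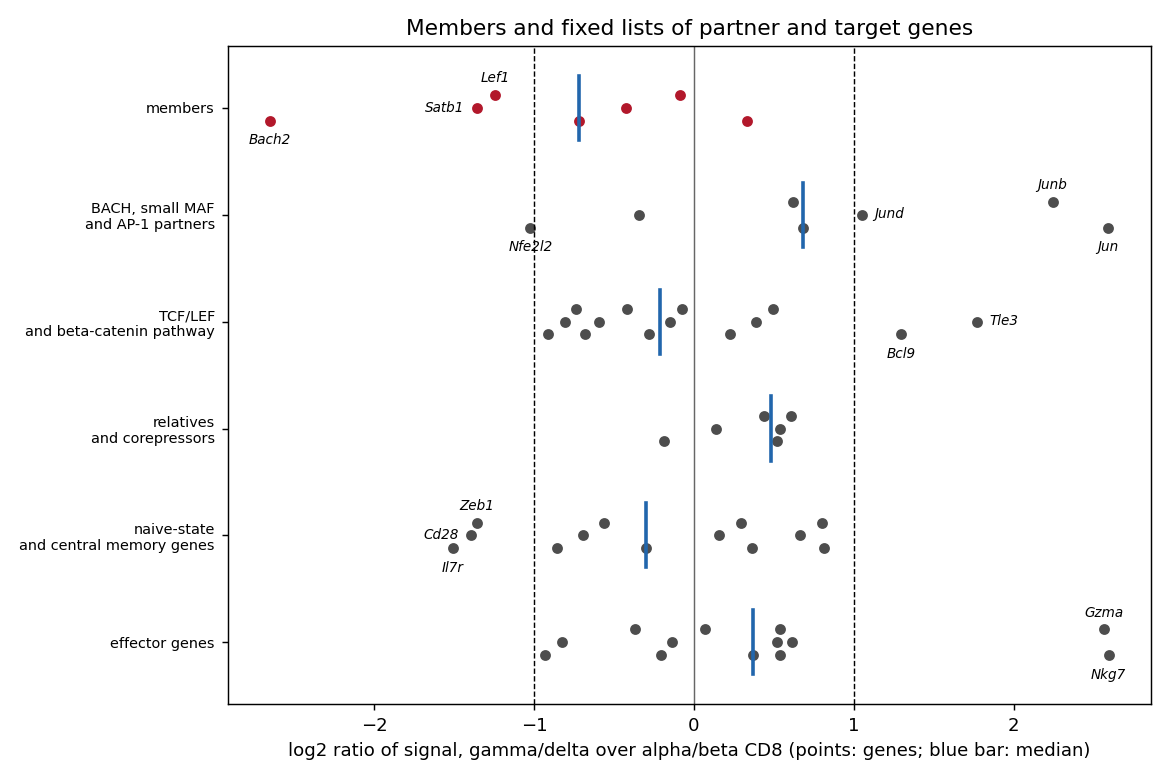
Log2 ratio of gamma/delta over alpha/beta CD8 signal for each gene with a ratio, for the members (red) and the 5 lists of related genes (grey), with the list's median as a blue bar and 2-fold as dashed lines; genes past 2-fold are named. The members' median lies at -0.72 and that of the BACH, small MAF and AP-1 partners at 0.68.

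Markers were read to check the labels. All 6 T cell markers lay above the floor on both arrays, and Cd8a (731.1 in gamma/delta cells, 8852 in CD8+ alpha/beta cells) and Cd8b1 (382.3 in gamma/delta cells, 2193 in CD8+ alpha/beta cells) were lower in gamma/delta cells. Cd44, an activation and memory marker, read 524.9 in gamma/delta cells and 421.0 in CD8+ alpha/beta cells, and its 3 measured probe sets ran from -0.85 to 0.97. Of the other activation markers, Cd69 read 17258 in gamma/delta cells and 18670 in CD8+ alpha/beta cells, far above the floor in both. Il2ra read 333.2 in gamma/delta cells and 191.8, under the floor, in CD8+ alpha/beta cells, and Tnfrsf9 read below the floor on both arrays. The naive state of the preparations was not tested. B cells also express Bach2, Bcl6 and Foxp1. Of 8 B cell markers with a probe set, Cd79a, Pax5 and Cd22 read below the floor on both arrays, and the 5 with a ratio were all above 0 and short of 2-fold. The summed signal of the 8 was 5611 in gamma/delta cells and 4430 in CD8+ alpha/beta cells. Ebf1 made up most of it, with 3331 in gamma/delta cells and 2650 in CD8+ alpha/beta cells, and its 4 probe sets ran from -0.20 to 0.33. The summed signal of 4 NK cell markers was 240.3 in gamma/delta cells and 767.1 in CD8+ alpha/beta cells, with Ncr1, Tyrobp and Klra8 below the floor on both arrays. That of 5 plasma cell markers was 2171 in gamma/delta cells and 1169 in CD8+ alpha/beta cells. That of 6 myeloid markers was 1056 in gamma/delta cells and 754.4 in CD8+ alpha/beta cells. Of these 6, 4 read below the floor on both arrays, and the highest readings were 253.7 in gamma/delta cells and 284.6 in CD8+ alpha/beta cells. The summed signal of 4 helper, follicular and regulatory T cell markers was 900.1 in gamma/delta cells and 1033 in CD8+ alpha/beta cells. Of these 4, 3 read below the floor on both arrays, and Ctla4 read 596.9 in gamma/delta cells and 607.9 in CD8+ alpha/beta cells. The sums include signals below the floor, which are imprecise. The part of other cell types in the members' ratios was not tested.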

How the data were processed

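Total RNA of 2 samples was hybridised to 1 array each. The deposited intensity values were computed by the authors with Affymetrix Expression Console 1.0 (MAS5 algorithm), per the submitters' processing notes, and are linear. MAS5 subtracts a mismatch estimate, so that low values are imprecise. Scanner files and detection calls were not used, and a genome build is not given in the sources used here. Probe sets were named through a platform annotation. Those with several symbols, with none listed, or for controls name no gene, but all except controls entered the background of probe sets. Ratios, the floor and the 2-fold call were computed with Python 3.11.15, pandas 2.3.3 and numpy 2.4.6, and the loess (span 0.3) with statsmodels 0.14.6. The number of arrays limits the precision, and there is no test. The steps were tested on simulated data. The members and lists were chosen with earlier results of these data known. The rule for named genes took every member probe set, up to 4 genes per list with the largest ratio past 2-fold, and 3 genes nearest to Bach2 and to Lef1 in ratio. Other list genes were picked for naming with their values in view. The windows of same-signal genes were also added after seeing the data. Alternatives changed the scaling, the floor and the choice of probe set. Promoter sequences came from RefSeq, and all 8 members with a probe set matched by gene ID.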

Additional observations from a re-analysis of the deposited data

How the results depend on the processing

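Of 329 recomputed values 312 were taken as kept and 17 as moved. Ratios and medians were kept where they moved by less than the pooled SD between probe sets. That SD does not apply to counts, and some counts that changed were among the 312. Examples are the 10 member probe sets called lower with no floor, against 8, and the 2 member genes with probe sets averaged, against 3. No value past 2-fold changed sign. The alternatives were median scaling, quantile normalization, loess, floors at the 30th and 70th percentile, no floor, probe sets averaged, and leaving out probe sets with the suffixes _x_at, _s_at and _a_at. The count of member probe sets lower in gamma/delta cells by 2-fold or more was 5 when those suffixes were left out, against 8, because fewer probe sets were counted; under the other settings it ran from 7 to 10. The count of member genes stayed at 3 except with probe sets averaged, where Satb1 dropped out and it was 2. With probe sets averaged Bach2 had a log2 ratio of -1.90 and Lef1 of -2.49, which averages in a probe set below the floor on both arrays. Without the probe sets of those suffixes Bach2 had -1.73. At the 70th percentile floor Foxp1 probe set 1421141_a_at had a bound of -0.90. The other 11 that moved were counts of called genes in the lists, most of them with no floor, with a lower floor or with probe sets averaged. Values short of 2-fold that did change sign were the median of the effector genes (-0.14 with probe sets averaged and -0.06 with the 70th percentile as floor, against 0.37), that of the TCF/LEF pathway (0.25 with probe sets averaged, against -0.22) and Foxp1 probe set 1435221_at (0.10 after loess and 0.06 after quantile normalization, against -0.06). No paired analysis was possible because each group has 1 array. The values of Prdm1 and Eomes, near the floor, and of Tbx21, far below it, are limited by signal over background.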
